A study of Mus musculus with 8 samples.

Results

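The genes described here are 48 genes of the mouse cell cycle, taken by name from a table of 47643 named genes and split by phase and role into 14 genes of the G1/S transition, 21 mitotic genes, 8 cyclins and 5 inhibitors. All 48 passed the filter on low counts and lay among the 15327 genes tested. They were measured by RNA-seq in bone marrow mesenchymal stem cells (MSCs) of C57BL/6 mice, with 2 libraries labelled WT and 2 labelled cKO. The cKO genotype was Prx1-Cre;Mettl3fl/fl: Cre under the Prx1 promoter of limb mesenchyme removes exons 2 and 3 of Mettl3, the catalytic subunit that writes N6-methyladenosine (m6A) on mRNA. The WT libraries are labelled wild type, and the study's text describes the controls as Mettl3fl/fl littermates, so that both groups may carry the floxed alleles. Every culture had spent 2 days in osteogenic medium with dexamethasone at 100 nM, ascorbic acid at 50 µg/ml and β-glycerophosphate at 5 mM. The ages of the mice were not given for these cultures, nor was it stated whether the 2 libraries of a group came from separate animals, so p-values measure only the spread between these libraries. A list of m6A peaks, made from 2 immunoprecipitates and 2 inputs of wild type MSCs under the same medium, was read beside the expression data.

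A cell enters the cycle when D-type cyclins and their kinase partners, opposed by the inhibitors of the INK4 and CIP/KIP families, phosphorylate the retinoblastoma protein and free E2F factors, which switch on genes for DNA replication. Later the genes of G2 and mitosis are switched on by a complex of B-Myb, MuvB and FoxM1 that binds an element named CHR. Marrow stromal progenitors divide before they mature into osteoblasts and leave the cycle as they differentiate.

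Most of these genes were lower in the cKO libraries. Of the 48 genes, 38 fell, 2 rose and 8 did not pass an adjusted p of 0.05 in edgeR's quasi-likelihood test, so that 79.2% were lower, against 16.8% of all genes tested that were lower and 13.7% that were higher. The median log2 fold change, cKO over WT, was -0.72 over the 48 genes and -0.0038 over all genes tested. Those that fell were 11 of 14 G1/S genes, all 21 mitotic genes and the 5 cyclins of types E, A and B, with 1 inhibitor. None of the D-type cyclins fell, and the inhibitors moved in both directions. For 42 of the genes, or 87.5%, both cKO libraries lay below both WT libraries, which was true of 35% of all genes tested. The cKO libraries lay above both WT libraries for 4 genes, against 33.9% of all genes tested, and the groups overlapped for E2f2 and Ccnd2. In bulk samples, fewer dividing cells and less RNA of these genes per cell cannot be told apart.

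**Figure D1:**
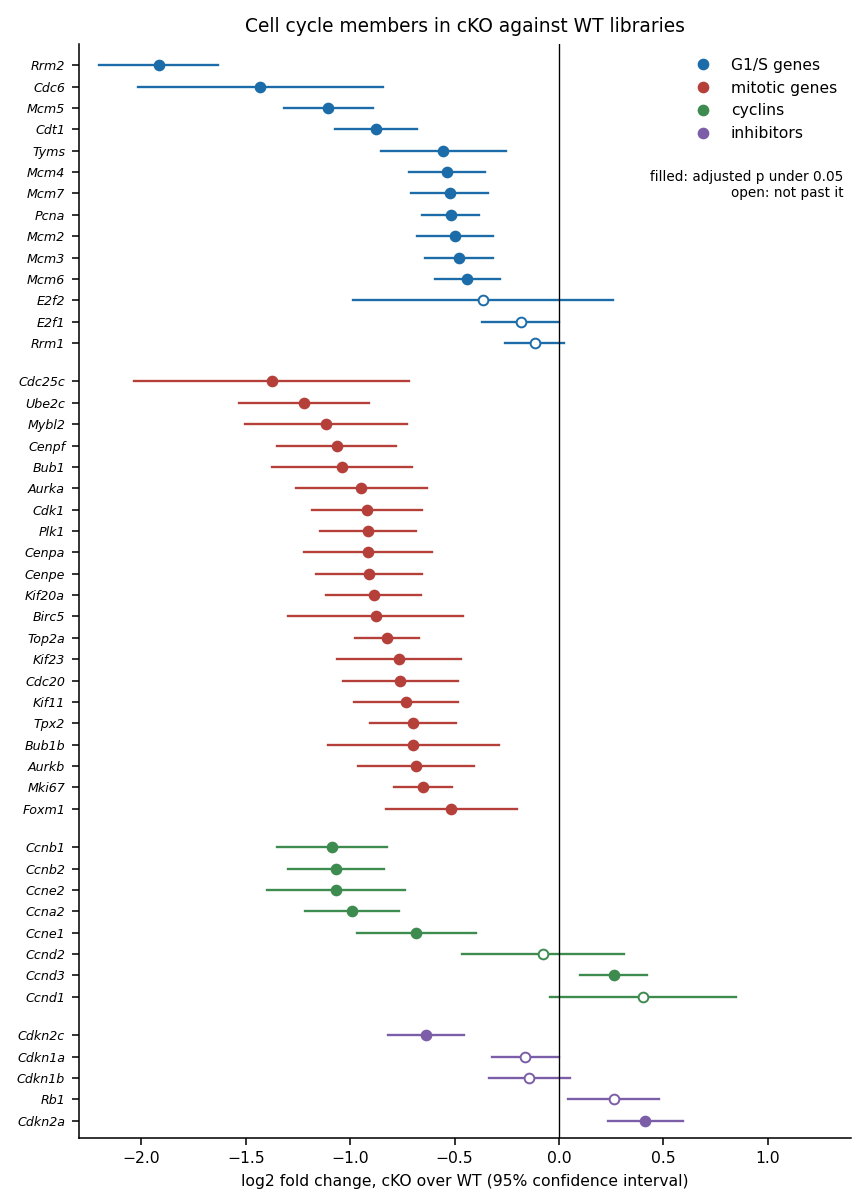
The log2 fold change (x axis, cKO over WT) of each of the 48 genes with its 95% confidence interval from the edgeR fit, by list, filled where the adjusted p was under 0.05. All 21 mitotic genes lie left of 0, between -1.38 and -0.51, while 2 of the D-type cyclins and 2 inhibitors, Rb1 and Cdkn2a, lie right of it.

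The libraries held 23978099 to 34106693 counts. The 2 cKO libraries were much more alike than the 2 WT libraries, with a biological coefficient of variation of 1.89% against 12.4% and a chi-square per degree of freedom of 1.82 against 32.6. Because the cKO libraries stayed close to counting noise, each count was also computed with them summed to 1 library: 31 of the 48 genes were then lower and 0 were higher. The share of all genes tested that was called was also smaller in that setting than with the libraries kept apart. Mettl3 itself, counted over the whole gene, stood at 17.6 and 16.9 CPM (counts scaled to library size) in WT and 17.5 and 16.3 in cKO, with an adjusted p of 0.824, so these counts do not show the deletion of its exons. The groups below follow the labels.

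Genes of the G1/S transition fell together but by very different amounts. Of 14 genes, 11 fell and 3 did not pass the test, with a median log2 fold change of -0.52. Their summed level was 776 and 762 CPM in the WT libraries and 492 and 493 CPM in the cKO libraries, with no overlap. With the cKO libraries summed, 7 were lower.

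Rrm2, the regulated subunit of ribonucleotide reductase that supplies deoxyribonucleotides, gave the largest fall of the 48 (ENSMUSG00000020649, GRCm38 chr12:24708241-24714146). It stood at 140 and 112 CPM in WT and 31.9 and 34.6 CPM in cKO. The log2 fold change was -1.92 ± 0.12 (SE, adjusted p = 0.000131), a 3.78-fold lower level. Its partner Rrm1, the larger subunit, was nearly level at 71.2 and 70.3 CPM in WT and 65.2 and 65.5 CPM in cKO, with a log2 fold change of -0.12 ± 0.06 and an adjusted p of 0.188. The ratio of Rrm2 to Rrm1 counts was thus 1.96 and 1.59 in the WT libraries and 0.489 and 0.528 in the cKO libraries. The ratio was above 1 in both WT libraries and well below 1 in both cKO libraries.

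Licensing of replication origins is done by Cdc6 and Cdt1, which load the Mcm2-7 helicase. Cdc6 (chr11:98907801-98923940) stood at 6.83 and 6.75 CPM in WT and 1.86 and 3.10 CPM in cKO. It was a gene of low counts, 45 and 99 in the cKO libraries, and its log2 fold change was -1.43 ± 0.24 (adjusted p = 0.00714). Both cKO libraries were well below WT, though they differed from each other. Cdt1 was at 35.5 and 33.7 CPM in WT and 19.2 and 18.6 CPM in cKO, and had a log2 fold change of -0.88 ± 0.08 (adjusted p = 0.000681).

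All 6 helicase subunits fell, and Mcm5 fell most. Mcm5 (ENSMUSG00000005410, chr8:75109528-75128439) stood at 39.9 and 36.6 CPM in WT and 17.2 and 18.4 CPM in cKO, with a log2 fold change of -1.10 ± 0.09 (adjusted p = 0.000367). The other 5 subunits, Mcm2, Mcm3, Mcm4, Mcm6 and Mcm7, lay between -0.54 and -0.44, with adjusted p-values of 0.00334 to 0.00463. With the cKO libraries summed, Mcm4, Mcm5 and Mcm7 kept their calls, while the adjusted p was 0.0626 for Mcm2, 0.0527 for Mcm3 and 0.0626 for Mcm6. Under limma on log2(TPM + 0.1) it was 0.285 for Mcm6 and 0.192 for Mcm7. Mcm5 counts were 0.890 and 0.808 of the mean of the other 5 in the WT libraries and 0.531 and 0.574 in the cKO libraries. The proteins form a ring with 1 copy of each, but the mRNA of Mcm5 was the only one of the 6 whose log2 fold change passed -1. Mcm7 lies opposite Cops6 and Ap4m1, whose reads cannot be told apart from its own without strand.

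Pcna, the sliding clamp of the replication fork, was the most abundant G1/S gene. It had 203 and 207 CPM in WT and 144 and 142 CPM in cKO, a log2 fold change of -0.52 ± 0.06 (adjusted p = 0.00131). Tyms, thymidylate synthase, stood at 11.9 and 13.3 CPM in WT and 9.12 and 8.03 CPM in cKO (log2 fold change -0.55 ± 0.12, adjusted p = 0.0186). In both genes the WT and cKO libraries did not overlap.

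Besides Rrm1, the genes of this list that did not pass the test were the E2F activators. E2f1 had 33.2 and 35.1 CPM in WT and 29.4 and 30.7 CPM in cKO, with a log2 fold change of -0.18 ± 0.08 and an adjusted p of 0.123. E2f2 differed more between the WT libraries, at 11.4 and 20.6 CPM, than between groups, with 12.6 and 12.2 CPM in cKO (log2 fold change -0.37, 95% confidence interval -0.99 to 0.26, adjusted p = 0.331). WT replicate 2 decided this value, which was 0.11 without it.

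Mitotic genes fell without exception: 21 of 21 passed the test, with log2 fold changes from -1.38 to -0.51, a median of -0.89 and a highest adjusted p of 0.0275. Their summed level was 459 and 473 CPM in the WT libraries and 269 and 266 CPM in the cKO libraries. For every one of the 21 genes both cKO libraries lay below both WT libraries. With the cKO libraries summed, the median log2 fold change of the 21 genes was -0.89. It was smaller by limma, at -0.66 on log2(TPM + 0.1) and -0.59 on log2(TPM + 1). By limma on log2(TPM + 0.1), 16 were lower, against 9.41% of all genes tested. TPM is the deposited level per transcript length.

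The chromosome-bound proteins were the most abundant of the list by counts. Mki67, the source of the Ki-67 antigen of dividing cells, stood at 103 and 101 CPM in WT and 64.9 and 64.8 CPM in cKO (log2 fold change -0.65 ± 0.06, adjusted p = 0.000582). Top2a, the topoisomerase that untangles sister chromatids, was at 66.9 and 65.1 CPM in WT and 37.0 and 37.6 CPM in cKO (log2 fold change -0.82 ± 0.06, adjusted p = 0.000323). In both genes the replicates of each group were close together and the gap between groups was many times their spread.

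The largest mitotic falls were in Cdc25c, Ube2c and Mybl2. Cdc25c, a phosphatase that activates Cdk1, had the largest, at -1.38 ± 0.27 (adjusted p = 0.0123), but rested on 75 and 55 counts in WT and 19 and 26 in cKO, and its adjusted p was 0.0713 with the cKO libraries summed. Ube2c, the ubiquitin-conjugating enzyme of the anaphase-promoting complex, was at 15.3 and 18.0 CPM in WT and 7.51 and 6.77 CPM in cKO, a log2 fold change of -1.22 ± 0.13 (adjusted p = 0.00113). Mybl2, which encodes B-Myb, was at 6.95 and 8.10 CPM in WT and 3.63 and 3.32 CPM in cKO (log2 fold change -1.11 ± 0.16, adjusted p = 0.00382). Foxm1, the other activator of this programme, had the smallest fall of the list: 14 and 17.4 CPM in WT, 10.9 and 11 CPM in cKO, log2 fold change -0.51 ± 0.13, adjusted p = 0.0275, or 0.133 with the cKO libraries summed. The pair of activators thus lay near opposite ends of the mitotic range.

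The kinases of mitosis fell by similar amounts. Cdk1, the kinase partner of cyclins A and B, stood at 23.6 and 27.5 CPM in WT and 13.9 and 13.1 CPM in cKO, a log2 fold change of -0.92 ± 0.11 (adjusted p = 0.00179). Plk1 had a log2 fold change of -0.92, Aurka of -0.95, Aurkb of -0.69, Bub1 of -1.04 and Bub1b of -0.70. The values of Bub1 and Bub1b varied with the setting, from -1.14 to -0.48 and from -0.94 to -0.19. Aurkb, the kinase of the chromosomal passenger complex, was at 13.0 and 12.3 CPM in WT and 7.47 and 8.28 CPM in cKO (± 0.11, adjusted p = 0.00665). Among kinetochore and centromere proteins, Cenpf had 13.2 and 12.1 CPM in WT and 5.98 and 6.11 CPM in cKO (log2 fold change -1.06 ± 0.12, adjusted p = 0.00139), and Cenpe and Cenpa both stood at -0.91. The spindle motors and their partners Kif11, Kif20a, Kif23 and Tpx2 ranged from -0.89 to -0.70, Birc5 (survivin) was at -0.88 and Cdc20, an activator of the anaphase-promoting complex, at -0.76. Cdc20 lies opposite Elovl1 and Kif20a opposite Cdc23, each with more counts than the member itself. The summed mitotic level was 0.592 and 0.620 of the summed G1/S level in the WT libraries and 0.547 and 0.540 in the cKO libraries. With 2 libraries a group, an exact permutation test of such a ratio cannot go below p = 0.333, so the difference between the phases was not called.

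The promoters of the 2 phases carried different sequence elements. RefSeq promoters, from 250 bases before to 50 bases after the start (GRCm38.p6), were found for 37 of the 48 genes, 16 of them mitotic and 13 of them G1/S. The CHR letters, TTTGAA or TTCGAA on either strand, stood in a promoter of 13 of 16 mitotic genes (81.2%), of 3 of 13 G1/S genes (23.1%) and of 16.3% of the 10800 genes tested that had a promoter entry. CCAAT was found for 87.5% of mitotic genes, 69.2% of G1/S genes and 42.4% of all these genes, and every mitotic promoter with the CHR letters also held CCAAT, a pair found for 6.77% of all. Letters of E2F sites were counted as TTCCCGC, as TTGGCGC, as TTCGCGC and as TTGCCGC on either strand. They were found for 9 of 13 G1/S genes (69.2%), 2 of 16 mitotic genes (12.5%) and 18.8% of all. The 2 mitotic genes with such letters were Mki67 and Cdk1. A match describes the letters in the window and does not show binding. The 30-base stretches below show how close the CHR letters, in capitals, lay to the start in 5 of the mitotic genes and in Ccnb2; they were taken from RefSeq on the strand of the gene.
Cenpf: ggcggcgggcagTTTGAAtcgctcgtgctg
Ccnb2: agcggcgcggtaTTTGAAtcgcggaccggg
Bub1: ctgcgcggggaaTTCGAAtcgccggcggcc
Cdk1: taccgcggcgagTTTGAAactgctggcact
Plk1: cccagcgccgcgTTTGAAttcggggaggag
Ube2c: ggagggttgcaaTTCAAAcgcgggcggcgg
The stretch of Cenpf lies at chr1:189688067-189688096, of Ccnb2 at chr9:70421533-70421562, of Bub1 at chr2:127831828-127831857, of Cdk1 at chr10:69352910-69352939, of Plk1 at chr7:122159453-122159482 and of Ube2c at chr2:164769888-164769917. The element began 3 bases from the start in Cenpf, 5 in Ccnb2, 15 in Bub1 and 31 in Plk1, and it began at -15 in Cdk1 and -29 in Ube2c, where it was on the opposite strand and reads TTCAAA. Among the mitotic promoters, Mybl2, Cenpe and Birc5 held no CHR letters, and they fell by 1.11, 0.91 and 0.88 on the log2 scale. Of the cyclins of types A, B and E with a promoter entry, only Ccnb2 held the letters, while Ccnb1 and Ccne1 did not. No promoter entry was given for Ccnd1, Ccnd2, Ccne2, Ccna2, Rb1, Foxm1, Aurkb, Tpx2, Cdc25c, Kif20a and Mcm4.

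**Figure D2:**
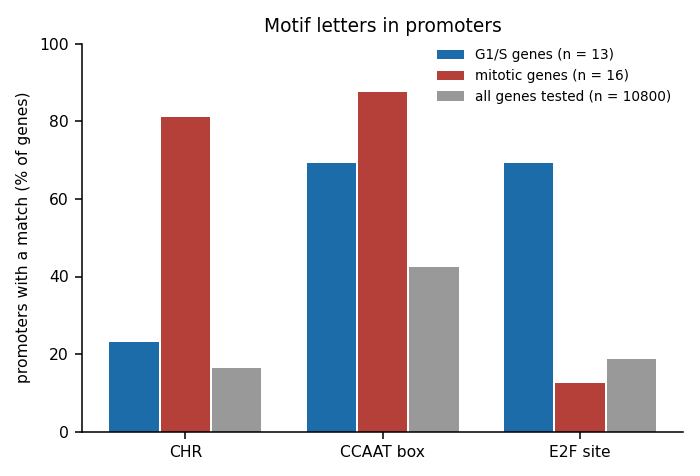
The share of genes (y axis, %) with a RefSeq promoter that holds the letters of the CHR, the CCAAT box and E2F sites, for the G1/S genes, the mitotic genes and all genes tested. The CHR bar is 81.2% for mitotic and 23.1% for G1/S genes, and the E2F bar is 12.5% and 69.2%.

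The cyclins split by type. Cyclins E, A and B fell, 5 of 5, from a summed 86.3 and 92.2 CPM in the WT libraries to 45.1 and 43.9 CPM in the cKO libraries. Of the 3 D-type cyclins, the first to act in G1, none fell, and their sum was 675 and 497 CPM in WT and 655 and 672 CPM in cKO, with overlap. Since the D-type cyclins held most of the cyclin counts, the sum of all 8 cyclins was 761 and 589 CPM in WT and 700 and 716 CPM in cKO, while their median log2 fold change was -0.84.

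Ccnd1 (cyclin D1, chr7:144929931-144939925) had 254 and 164 CPM in WT and 276 and 277 CPM in cKO, so both cKO libraries were higher, but the WT libraries were far apart. Its log2 fold change was 0.40 with a 95% confidence interval of -0.04 to 0.85 and an adjusted p of 0.151. With the replicate number as a block the adjusted p was 0.0286, although it is not known whether the numbers pair the libraries. Ccnd2 (cyclin D2, chr6:127125162-127152193) had 308 and 212 CPM in WT and 243 and 251 CPM in cKO, which lay between the WT values, and its log2 fold change was -0.08 (95% confidence interval -0.46 to 0.31, adjusted p = 0.759). Leaving out WT replicate 1 turned its sign, to 0.23, as did limma on TPM, with 0.08. Ccnd3 (cyclin D3, chr17:47505051-47599691) stood at 113 and 121 CPM in WT and 137 and 144 CPM in cKO and rose by 0.26 ± 0.07 on the log2 scale (adjusted p = 0.0279). That call was lost with the cKO libraries summed (adjusted p = 0.226) and without either cKO library (0.184 and 0.326). Ccnd1 lies opposite Oraov1 and Ccnd3 opposite Bysl.

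Cyclin E activates Cdk2 at the entry to S phase. Ccne1 had 9.99 and 10.2 CPM in WT and 6.10 and 6.46 CPM in cKO (log2 fold change -0.68 ± 0.12, adjusted p = 0.00765, or 0.0634 with the cKO libraries summed). Ccne2 had 8.72 and 9.37 CPM in WT and 4.50 and 4.14 CPM in cKO (log2 fold change -1.07 ± 0.14, adjusted p = 0.00244). Both forms were low genes with no overlap of the groups. Ccne2 lies opposite Ints8, which had more counts than Ccne2.

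Cyclins A and B, which carry the cell through S phase, G2 and mitosis, had levels in cKO close to 1 log2 unit below WT. Ccna2 stood at 24.4 and 24.5 CPM in WT and 12.9 and 11.8 CPM in cKO (log2 fold change -0.99 ± 0.09, adjusted p = 0.000731), and it lies opposite Exosc9. Ccnb1 (chr13:100778650-100786570) stood at 21.3 and 24.6 CPM in WT and 10.6 and 11 CPM in cKO (log2 fold change -1.09 ± 0.11, adjusted p = 0.000951). Ccnb2 stood at 21.8 and 23.5 CPM in WT and 11 and 10.6 CPM in cKO (log2 fold change -1.07 ± 0.10, adjusted p = 0.000594). The 3 genes and their kinase Cdk1, at -0.92, thus lay within a narrow range. The ratio of Ccnb1 to Ccnd1 counts was 0.0838 and 0.150 in WT and 0.0385 and 0.0396 in cKO.

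**Figure D3:**
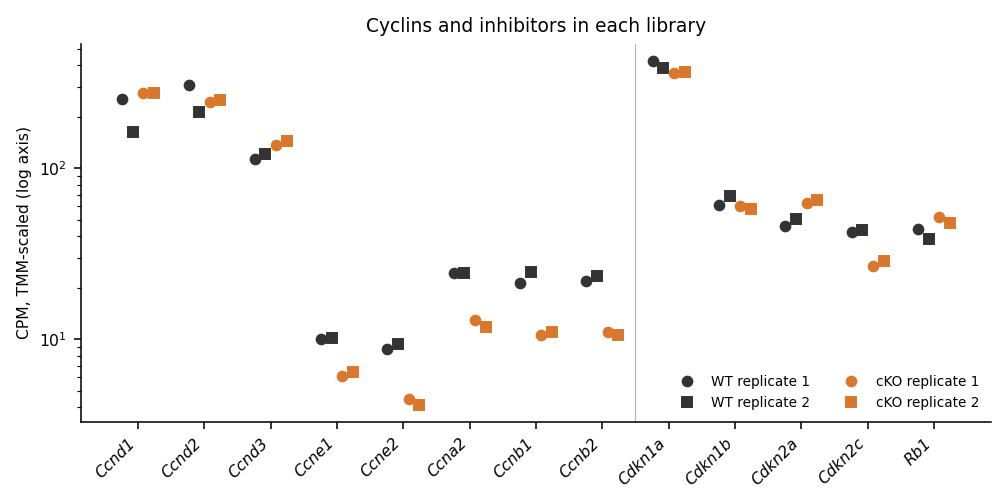
CPM (y axis, log scale, TMM-scaled) of the 8 cyclins and 5 inhibitors in each of the 4 libraries, WT in black and cKO in orange. Cyclins E, A and B lie lower in both cKO libraries, while the WT libraries of Ccnd1 stand at 254 and 164 CPM beside 276 and 277 CPM in cKO.

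Inhibitors did not move as a group: 1 fell, 1 rose and 3 did not pass the test, with a median log2 fold change of -0.14. Their sum was 617 and 589 CPM in WT and 559 and 567 CPM in cKO. Cdkn2c, which encodes the INK4 inhibitor p18 of Cdk4 and Cdk6, fell, with 42.4 and 43.6 CPM in WT and 26.7 and 28.6 CPM in cKO (log2 fold change -0.64 ± 0.08, adjusted p = 0.00188). Cdkn2a (chr4:89274471-89294653), which encodes the INK4 inhibitor p16 and, from another first exon, p19Arf, rose, with 45.8 and 50.5 CPM in WT and 62.6 and 65.6 CPM in cKO (log2 fold change 0.41 ± 0.07, adjusted p = 0.00879). Its 2 products cannot be told apart in counts per gene. The rise lost its call with the cKO libraries summed (adjusted p = 0.0718) and without either cKO library (0.0617 and 0.112).

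Among the inhibitors of this list, Cdkn1a and Cdkn1b of the CIP/KIP family differed least between the groups. Cdkn1c, of the same family but in the list of other G1 regulators, had a log2 fold change of 0.45. Cdkn1a, which encodes p21, had 424 and 388 CPM in WT and 358 and 368 CPM in cKO (log2 fold change -0.16 ± 0.07, adjusted p = 0.118), and its sign turned under limma on TPM, to 0.01. Cdkn1b, which encodes p27, had 60.9 and 69.0 CPM in WT and 60.1 and 57.6 CPM in cKO (log2 fold change -0.14, 95% confidence interval -0.33 to 0.05, adjusted p = 0.233). In both genes the cKO libraries were below both WT libraries by less than the test could call. Rb1, the retinoblastoma protein that holds back E2F, had 44.1 and 38.6 CPM in WT and 51.6 and 47.7 CPM in cKO (log2 fold change 0.26 ± 0.09, adjusted p = 0.0717, or 0.0358 with the replicate block). Rb1 lies opposite Lpar6 and Rcbtb2, whose reads may be counted with it. The ratio of Cdkn2a to Cdk1 counts was 1.94 and 1.84 in WT and 4.52 and 5.00 in cKO.

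Levels were compared between genes per transcript length. In TPM, Cdkn1a was the highest of the 48 genes in WT, at 355 ± 31.3 (SD, n = 2), and in cKO, at 358 ± 6.06. Pcna followed with 212 ± 1.87 in WT and 158 ± 0.742 in cKO, and then Ccnd3 with 116 ± 4.26 and 168 ± 1.76. In cKO, Ccnd3 thus stood above Pcna in TPM, whereas in WT it stood below. The log2 fold change of Ccnd3 varied with the setting, from 0.22 to 0.54. Next in WT came Cdkn2a at 104 ± 2.57 TPM, Rrm2 at 85.7 ± 15.5 TPM, Ccnd1 at 79.0 ± 24.7 TPM and Ccnd2 at 60.3 ± 15.9 TPM. By library, Rrm2 had 96.6 and 74.7 TPM in WT, Ccnd1 96.5 and 61.5 TPM and Ccnd2 71.5 and 49.05 TPM. The order of these 3 was the same in both WT libraries and was not tested. In cKO, Rrm2 was at 25.3 ± 1.98 TPM and had fallen below Cdk1, at 30.4 ± 2.85 TPM. The lowest levels were those of Cdc25c, at 1.60 ± 0.184 TPM in WT, and Cenpf, at 1.51 ± 0.106 TPM. The median level of the mitotic list was 10.1 TPM in WT and 6.56 TPM in cKO, and that of the G1/S list was 20.4 and 15.1 TPM.

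**Figure D4:**
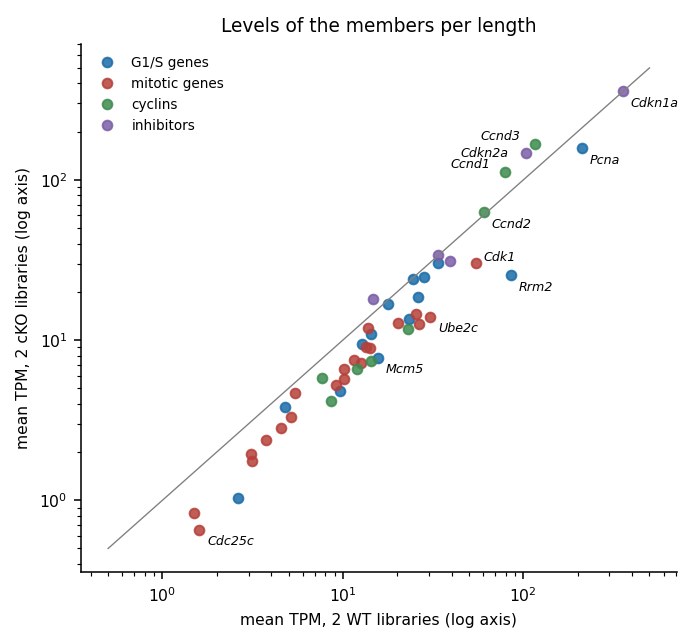
Mean TPM of each of the 48 genes in the 2 cKO libraries (y axis, log scale) against the 2 WT libraries (x axis, log scale), with the line of equal level. Cdkn1a lies on the line at 355 and 358 TPM, Rrm2 lies far below it, and Ccnd3, Cdkn2a and Ccnd1 lie above it.

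Other genes of replication and mitosis, from lists also chosen with earlier results of these data known, are described by their counts. Over all genes tested, 16.8% were lower and 13.7% higher. Of 47 other replication genes, 31 fell, 0 rose and 16 did not pass the test, with a median log2 fold change of -0.63, and DESeq2 likewise called 0 higher. The largest fall was in Mcm10, a factor of fork assembly, at -1.39. Of 57 other mitotic genes, 45 fell, 2 rose and 10 did not pass the test, with a median of -0.80. Ckap2l and Oip5 fell most, by 1.34 and 1.28. Gtse1 and Psrc1 were the 2 that rose, by 0.58 and 0.30, although both are expressed in G2 and mitosis and both are also known as p53 targets. Counts in these lists varied with the setting: with the cKO libraries summed, 14 replication genes and 29 mitotic genes were lower.

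Other G1 regulators did not fall as a group. Of 25 genes, 7 rose, against 13.7% of all genes tested, and 3 fell, against 16.8%. The median log2 fold change of the 25 genes was 0.14, and 15 did not pass the test. With the cKO libraries summed, 2 were higher and 0 lower. Cdkn2b, which encodes the INK4 inhibitor p15, rose most: it stood at 24.6 and 24.9 CPM in WT and 86.6 and 89.8 CPM in cKO, a log2 fold change of 1.83 ± 0.07 (adjusted p = 1.59e-05). It lies next to Cdkn2a, at chr4:89306289-89311032 on the same strand, where the log2 fold change of Cdkn2a was 0.41. Ccng2 rose by 0.46, while Myc, a transcription factor of growth, fell by 0.56 and Rbl1, which encodes p107, fell by 0.36. Of 16 p53 target genes, 9 rose, 3 fell and 4 did not pass the test, with a median of 0.29, and 5 were higher with the cKO libraries summed or without either cKO library. Eda2r and Bbc3 rose most, at 1.03 and 0.98, and Perp and Btg2 fell most, at -3.24 and -1.30. Perp rested on 80 and 58 counts in WT and only 4 and 9 in cKO. The WT libraries of Btg2 lay apart, at 99.1 and 139 CPM, with 49.4 and 46.8 CPM in cKO. Cdkn1a, the best known target of p53, was not among those that rose.

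**Figure D5:**
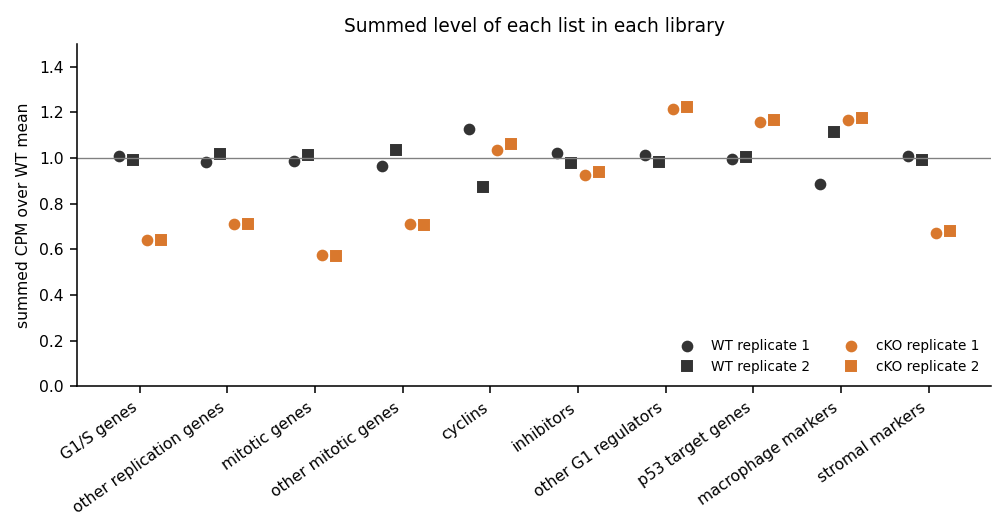
Summed CPM of each list in each library, divided by the mean of the 2 WT libraries (y axis). The G1/S and mitotic lists and the other replication and mitotic lists lie below 1 in both cKO libraries. The other G1 regulators and p53 target genes lie above 1. The stromal markers, whose sum is mostly Col1a1 and Col1a2, lie below 1.

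Markers of cell types also differed between the groups. Macrophage markers, 10 of 10 tested, were abundant in all 4 libraries although the cells are labelled MSCs: they summed to 18331 and 23077 CPM in WT and 24155 and 24312 CPM in cKO, with 4 higher (Fcgr3, C1qb, Ptprc and C1qa) and 6 not past the test. Stromal markers summed to 4466 and 4372 CPM in WT and 2963 and 3005 CPM in cKO. Most of that sum came from the collagen genes Col1a1 and Col1a2. Col1a1 had 1895 and 1919 CPM in WT and 1224 and 1258 CPM in cKO. Col1a2 had 1861 and 1758 CPM in WT and 811 and 828 CPM in cKO. Of the 10 stromal markers, Thy1, Prrx1, Pdgfrb and Pdgfra rose, Nt5e, Col1a2, Eng, Col1a1 and Ly6a fell, and Vcam1 did not pass the test. Endothelial markers summed to 11 and 9.65 CPM in WT and 26.4 and 24 CPM in cKO, with Emcn, Kdr and Vwf higher. Cdh5 had 0.414 and 0.389 CPM in WT and 0.165 and 0.188 CPM in cKO and did not pass the test, and Pecam1 and Tek were too low to be tested. Neutrophil markers summed to 3.13 and 4.28 CPM in WT and 1.11 and 0.909 CPM in cKO, with S100a8 lower by an adjusted p of 0.00475 (log2 fold change -2.43), Camp not past the test and S100a9, Mpo and Ngp at 0 counts in every library, and erythroid markers summed to at most 0.619 CPM, with Gata1 at 0. The part of these cell types in the lower cell cycle genes was not tested.

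m6A peaks had been called on a minority of these genes. The deposited list held 10160 peaks, and 22 of them had their summit on 14 of the 48 genes, or 29.2% (Wilson 95% interval 18.2% to 43.2%). Among the 14118 genes tested that were found in GENCODE vM1 (mm9), 42.0% had a peak (41.1% to 42.8%), a share that lies within the interval of the 48. The share was 46.4% among genes with at least the mean count of the lowest of the 48, which lies above that interval. With summits in exons only, 11 of the 48 genes, or 22.9% (13.3% to 36.5%), had a peak, against 39.8% of genes tested, which then also lies above the interval. By list, 3 of 14 G1/S genes, 6 of 21 mitotic genes, 2 of 8 cyclins and 3 of 5 inhibitors had a peak. The peaks come as 1 list without replicates, and the depth behind it is unknown, so that a gene without a peak is a gene without a called peak. Gene length also differs between genes and was not taken into account.

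Most of the 22 summits, 13, lay in coding sequence. Mki67 had 5 of them, 4 in the long exon 12 and 1 in exon 6, with fold enrichments of 2.84 to 4.61, and Cenpf had 3, with fold enrichments of 3.72 to 5.60. Both genes have coding sequences far longer than the rest of the mitotic members with a peak, 9531 and 8991 bases. Near the stop codon, E2f1 had a summit 44 bases before it, with a fold enrichment of 5.14, and E2f2 had one 127 bases before it, with 4.66. Foxm1 had its summit 489 bases before the stop codon. That of Cdkn1a lay 461 bases before the stop codon in a coding sequence of 477 bases, and so near the start codon. In the 3′UTR, Tyms had a summit 323 bases and Ccnd2 458 bases past the stop codon. Ccnd1 had a summit in the 5′UTR and another 65 bases before the stop codon with a fold enrichment of 1.60, lower than in nearly all peaks, and Cdkn2c had one in the 5′UTR. The summits on Cdk1 and Aurkb were intronic. That of Ube2c also lay within Tnnc2 and those of Rb1 within Lpar6, so that they cannot be given to 1 gene.

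The motif GGAC, the core of the m6A consensus, lay close to several of these summits, while the peaks on Tyms and Cdk1 held none. How often so short a motif would lie this close by chance was not tested. GGAC is shown in capitals in 30 bases of coding sequence, from the mm9 genome on the strand of the gene, for peaks on regulators and on the 2 genes with the most peaks.
E2f1: ctgtgactttggGGACctgacccctctgga
E2f2: acaacagactgaGGACcagttcctgtcccc
Foxm1: caggaagagggaGGACctttcaagaccccc
Mki67: aagcttggtaatGGACtcagttattgttga
Cenpf: aacaccaaagcaGGACactgaccaaacttg
Cdkn1a: cttcggtcccgtGGACagtgagcagttgcg
The stretch of E2f1 lies at chr2:154386431-154386460, 25 bases from the summit, and that of E2f2 at chr4:135748784-135748813, 24 bases from it. That of Foxm1 lies at chr6:128323475-128323504 and 3 bases from the summit, and that of Mki67 at chr7:142887380-142887409 and 9 bases from it. That of Cenpf lies at chr1:191478871-191478900, 14 bases from the summit, and that of Cdkn1a at chr17:29235412-29235441, 58 bases from it. For Mki67 and Cenpf the peak with GGAC nearest its summit is shown. In their other peaks GGAC lay 63 to 255 bases from the summit in Mki67 and 22 to 61 bases in Cenpf. These peaks span 200 or more bases and do not name the methylated base.

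Genes with and without a peak were set side by side. Of the 14 with a peak, 8 fell, 0 rose and 6 did not pass the test, with a median log2 fold change of -0.53, and of the 34 without a peak, 30 fell and 2 rose, with a median of -0.85. Within the mitotic list, the 6 with a peak all fell, with a median of -0.80, as did the 15 without, with a median of -0.89. E2f1, E2f2, Ccnd1, Ccnd2, Cdkn1a and Rb1 were the genes with a peak that did not pass the test. Over the 14118 genes tested that were found in GENCODE vM1, 791 of 5923 with a peak (13.4%) were lower and 1304 higher, and 1731 of 8195 without a peak (21.1%) were lower and 726 higher. The peaks were called in wild type cells only, so the loss of m6A from these mRNAs in cKO cells was not measured.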

How the data were processed

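RNA-seq of 2 WT and 2 cKO libraries and MeRIP-Seq of 2 immunoprecipitates and 2 inputs were available as 1 expression table and 1 peak list. Per the labels and the study's methods, mRNA libraries were made with the NEBNext Ultra kit, which does not mark strand, and the submitters' processing notes name HISAT2 2.0.4, TopHat, MACS2 and the builds mm10 and mm9. The counting tool was not given in the sources used here. The authors deposited estimated counts per gene, not normalized, and values headed FPKM that sum to 998193 to 998570 over the named genes of a library, so that they are TPM. For peaks the authors deposited the pileup signal of each summit, a ratio giving its fold enrichment, and p- and q-values as −log10, in 1 list, and whether replicates were pooled was not stated. The deposited gene lengths and positions are other values, used as given.

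Rows with no gene name, 89 in all and 0.11% to 0.125% of a library's counts, were left out. Estimated counts were rounded (14 of the 48 genes held a fraction), filtered with filterByExpr and TMM-scaled. The two-sided quasi-likelihood test of edgeR 4.0.16 (glmQLFTest, no block) was run in R 4.3.3, with Benjamini-Hochberg adjustment over all 15327 genes tested. CPM are TMM-scaled. The standard error is the log2 fold change over the square root of its F. The study itself used Ballgown. The fit was tested on simulated data in which both groups had the same spread, unlike the WT and cKO libraries here. Whether the replicate numbers pair the libraries is not known. Deviations from the group mean correlated at r = 0.032 over 15327 genes, with only 2 numbers. The cKO libraries differed by little more than counting noise, so this value could not show or exclude a pairing. Alternatives were the block, no filter, median-of-ratios (RLE) and upper quartile scaling, DESeq2 1.42.0, limma 3.58.1 on log2(TPM + 0.1) and log2(TPM + 1), each library left out, and the cKO libraries summed.

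Summits were placed on GENCODE vM1 (mm9). Peak shares carry Wilson 95% intervals, which cover counting error only. Motif letters were searched on both strands of RefSeq promoters. Named genes were all cyclins and inhibitors and, in the G1/S and mitotic lists, the 4 largest changes past an adjusted p of 0.05, the 2 highest mean counts and genes with a peak, and the 2 largest rises and falls of each other list. Of these, 1 gene is not reported here. Other genes were given as members of a list. The members and lists were chosen with earlier results of these data known, so no list was tested. Opposite-strand genes, which unstranded counts cannot separate, exceeded 10% of the level of 8 of the 48 genes.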

Additional observations from a re-analysis of the deposited data

How the results depend on the processing

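Of 576 values of single genes under 12 alternatives, 506 kept their direction and side of the threshold, 48 lost a call, 16 gained one and 6 turned sign, and 22 of the 38 lower genes kept their call throughout. With the cKO libraries summed, 7 G1/S genes, 14 other replication genes, 29 other mitotic genes and 0 other G1 regulators were lower, while 0 cyclins, 0 inhibitors, 0 of the 48 genes, 1 other mitotic gene, 2 other G1 regulators and 5 p53 targets were higher. With the replicate block, and likewise with no filter, 2 cyclins, 2 inhibitors and 4 of the 48 genes were higher. Whether the 2 replicate numbers pair the libraries is not known, and the block lost no call among the 48. Under limma on log2(TPM + 0.1) and log2(TPM + 1), 14 and 15 other replication genes, 27 and 29 other mitotic genes and 1 and 1 other G1 regulators were lower, and the inhibitors' median turned to 0.0136 in both, as did Cdkn1a, and Ccnd2 to 0.0828 and 0.0813. TPM moved the median of all genes by 0.1 on the log2 scale, and 44.8% and 44.3% of calls were then lower, against 55.1%. In these limma settings the median was -0.43 and -0.41 for G1/S genes, against -0.52 in the main fit. For mitotic genes it was -0.66 and -0.59, against -0.89, and for cyclins -0.63 and -0.57, against -0.84. DESeq2 called 1 other mitotic gene higher. Leaving out 1 library gave 6 to 13 lower G1/S genes, 16 to 21 mitotic genes, 4 to 6 cyclins, 1 to 3 inhibitors, 12 to 42 other replication genes, 26 to 50 other mitotic genes, 0 to 5 other G1 regulators and 27 to 42 of the 48. It gave 0 to 3 higher cyclins, 0 to 2 inhibitors, 0 to 2 other mitotic genes, 1 to 11 other G1 regulators, 5 to 13 p53 targets and 0 to 5 of the 48. The low ends came without a cKO library and the high ends without a WT library, where the lone library is assumed to vary like the other group. E2f2 turned to 0.108 without WT replicate 2 (-0.730 without WT replicate 1) and Ccnd2 to 0.226 without WT replicate 1 (-0.321 without WT replicate 2). The share of tested genes with a peak was 39.9% at −log10 q of at least 5, 39.8% for summits in exons (22.9% of the 48 genes), 40.9% for any overlap with an exon and 46.4% for genes with at least the mean count of the lowest of the 48. The cause of these shifts was not tested. Among the 48 genes, the largest standard errors were those of Cdc25c and Cdc6, with low counts, and E2f2, whose WT libraries lay apart.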

Other observations

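The kinases and inhibitors around the D-type cyclins, named after their values were seen, moved in both directions. Cdk4 stood at 134 and 143 CPM in WT and 113 and 115 CPM in cKO (log2 fold change -0.28, edgeR adjusted p = 0.0186). Cdk6, the other partner of the D-type cyclins, stood at 90.7 and 68.3 CPM in WT and 106 and 109 CPM in cKO (0.43, adjusted p = 0.0461). Cdkn1c, which encodes p57 of the CIP/KIP family, had a log2 fold change of 0.45 (edgeR adjusted p = 0.0410). Rbl2, which encodes p130 of the repressor complex of resting cells, had a log2 fold change of 0.39 (edgeR adjusted p = 0.00714). Cdk2 stood at 20.5 and 25.6 CPM in WT and 22.3 and 23.3 CPM in cKO, within the range of the WT libraries. With the cKO libraries summed, the call of Cdk4 was lost, as were most calls of higher genes among the other G1 regulators. Cdk6, Cdkn1c and Rbl2 thus did not all keep their calls.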
